A study of Mus musculus with 4 samples.

Results

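The Zfp36 family of mRNA decay proteins was followed by the transcripts of its 3 members, Zfp36 (tristetraprolin), Zfp36l1 and Zfp36l2, which were taken by symbol from the 27998 genes counted in all 4 libraries. The libraries hold cells sorted from the livers of wild-type male C57BL/6 mice, 8 weeks old at purchase, which then ate control food (NCD, 2 libraries) or food without methionine and choline (MCD, 2 libraries) for 6 weeks, a diet that gives mice a fatty, inflamed liver. The cells were sorted as 7AAD- CD45+ Ly6G- with intermediate CD11b, and the series text calls the F4/80 gate low where the sample labels call it high. No transgene or other agent was used. The labels do not say whether a library stands for 1 mouse or several, so p-values measure only the spread between the 2 libraries of a diet, which may be technical. The family was chosen with its levels in Ly6C-low and Ly6C-high monocytes of these data known, and the classes were clustered on the same cells. That contrast is therefore described below without a test. The members' UMIs per cell type and diet also entered the choice, and the diet effect of Zfp36 in the monocyte and macrophage classes together was known then.

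Proteins of this family carry a tandem pair of CCCH zinc fingers that bind AU-rich elements in the 3′ untranslated regions (UTRs) of short-lived mRNAs. They recruit the CCR4-NOT deadenylase complex, after which the poly(A) tail is removed and the mRNA is decapped or degraded by the exosome. Zfp36 is induced in activated macrophages, where it shortens the life of Tnf mRNA, and the kinase MK2 (gene Mapkapk2) silences it by phosphorylation that attracts 14-3-3 proteins. Zfp36l1 and Zfp36l2 act on overlapping targets and are best known for restraining proliferation during lymphocyte development.

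The 3 genes lie apart in the genome (GENCODE M21 on GRCm38). Zfp36 is at chr7:28376784-28380253, Zfp36l1 at chr12:80107754-80113013 and Zfp36l2 at chr17:84183931-84187947, all on the minus strand. A transcript on the other strand overlaps each of them. Among them, the lincRNA Gm26669 (chr12:80108034-80113000), which covers most of Zfp36l1, was counted as a gene of its own, as was Gm44710, which overlaps Zfp36. The sources used here do not state that counting used the strand, so reads of Zfp36l1 and Gm26669 cannot be told apart with certainty. A processed pseudogene, Zfp36l1-ps, lies on chromosome X and was not analysed here. The family's binding element is usually searched as the nonamer TTATTTATT, read in the sense of the mRNA. It was present in the 3′ UTR of 7.60% of 20979 protein-coding genes and of 8.23% of 10166 genes tested here with an annotated 3′ UTR. All 3 members held 1 copy, in 3′ UTRs of 774 bases for Zfp36, 1835 for Zfp36l1 and 1822 for Zfp36l2. A list of 43 transcripts known as targets of the family held it in 15 genes, or 34.9%. The windows below show the element of each member beside the clustered copies of Tnf and the single copy of Cxcl3, a target described further on. They are genomic sequence written in the direction of the mRNA, and capitals mark the nonamer or its overlapping copies.

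Zfp36, chr7:28376950-28376979, minus strand: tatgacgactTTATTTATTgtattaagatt
Zfp36l1, chr12:80108166-80108195, minus strand: aactgttggaTTATTTATTttagaaattct
Zfp36l2, chr17:84184913-84184942, minus strand: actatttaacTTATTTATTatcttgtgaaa
Tnf, chr17:35199681-35199710, minus strand: ttaTTATTTATTATTTATTTATTATTTATT
Cxcl3, chr5:90787867-90787896, plus strand: ttatcagttgTTATTTATTgaaatggtctt

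The 4 libraries held 2699 to 3475 cell barcodes, of which 9609 were kept in all, and 4 to 12 barcodes occurred in both libraries of any pair. The diets differed in depth: a retained cell held a median of 2173 and 2253.5 unique molecular identifiers (UMIs, counted molecules) in the NCD libraries and of 12038 and 12300 in the MCD libraries. The share of barcodes over the limit of 10% mitochondrial UMIs was 33.6% to 37.2% on NCD and 9.44% to 11.6% on MCD. Diet, depth and preparation cannot be told apart, since each library belongs to 1 diet. Cells were grouped into classes by likeness of transcripts to marker lists. The Ly6Chi-like monocytes (415, 433, 579 and 811 cells in NCD replicates 1 and 2 and MCD replicates 1 and 2) and the Ly6Clo-like monocytes (183, 203, 375 and 349 cells) carried the markers of their names. Ly6c2, which encodes the Ly6C antigen, stood at 565 to 882 counts per 1000000 UMIs of the class (CPM) in the first class and at 124 to 268 in the second, and Ace, a marker of patrolling monocytes, at 22.1 to 101 and at 325 to 617. Ccr2 stood at 744 to 981 and at 304 to 652 CPM. The Ly6Clo markers Cx3cr1 (134 to 268 and 222 to 436 CPM) and Nr4a1 (654 to 1482 and 1342 to 2393 CPM) separated the classes less cleanly. Their ranges overlapped between the classes across the diets, though not within a diet. Cx3cr1 was lower on MCD in both classes, with log2 fold changes of -1.35 and -1.13. Most cells of each class came from different clusters in the 2 diets, cluster 2 (NCD) and cluster 0 (MCD) for the Ly6Chi-like class and cluster 9 (NCD) and cluster 3 (MCD) for the Ly6Clo-like class. The size of the Ly6Clo-like cluster on MCD depended on the clustering resolution, with 722 cells at 1.0, 289 at 0.5 and 407 at 2.0. On NCD it held 381, 375 and 396 cells. A class of C1q macrophages (64, 50, 313 and 240 cells) came mostly from cluster 18, which had 3 Kupffer cell markers among its 10 leading genes, on NCD and from cluster 7, which had 3 markers of lipid-associated macrophages there, on MCD. These 3 classes together are called the union, which held 2667 MCD cells. Unnamed cluster 5, with 321 and 303 cells in MCD replicates 1 and 2, met the naming rule for no marker list and was left out. Its cells had Ccr2 at 530 to 547 CPM, Ly6c2 at 397 to 608 CPM and Zfp36l1 at 125 to 150 CPM. The part of leaving them out in the diet effects was not tested. NCD replicate 1 stood apart in neutrophil transcripts: the 14 neutrophil markers summed to 3567 CPM in its Ly6Chi-like class, with S100a8 at 1539 and S100a9 at 1265 CPM, against 280, 551 and 562 CPM in NCD replicate 2 and MCD replicates 1 and 2. In its Ly6Clo-like class the sum was 206 CPM, in the range of 206 to 349 CPM of the 4 libraries. Values without this library are given beside the results it touches.

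Zfp36l1 was the member that separated the monocyte classes, and it did so mainly on control food. In Ly6Chi-like monocytes its level was 132 and 110 CPM in the NCD libraries and 126 and 97.3 CPM in the MCD libraries. In Ly6Clo-like monocytes it was 907 and 996.5 CPM on NCD and 169 and 180 CPM on MCD. Within a library the Ly6Clo-like level was 6.88-fold and 9.07-fold that of the Ly6Chi-like cells on NCD, and 1.34-fold and 1.85-fold on MCD. The mean log2 ratio was 2.98 ± 0.28 (SD, n = 2) on NCD and 0.66 ± 0.33 on MCD. A ratio of at least 2 in both NCD libraries was held by 6.5% of 4969 genes with a mean of at least 20 CPM, in both MCD libraries by 1.91% and in all 4 libraries by 1.63%. Zfp36l1 was in the first set and in neither of the others.

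Zfp36l2 leaned the same way by less, and Zfp36 hardly at all. Zfp36l2 was at 685, 817, 766 and 753 CPM in Ly6Chi-like monocytes of the NCD and then the MCD libraries, and at 1130, 1159, 993 and 1014 CPM in Ly6Clo-like monocytes. Its Ly6Clo-like level was higher in every library, with log2 ratios of 0.72 and 0.51 on NCD and of 0.37 and 0.43 on MCD. Zfp36 was at 2930, 3155, 2803 and 2997 CPM in the first class and at 3421, 3344, 3223 and 3023 CPM in the second. Its ratios of 1.17, 1.06, 1.15 and 1.01 lay close to 1. With CPM scaled by TMM factors, which set the bulk of genes level between samples, the mean log2 ratio of Zfp36 on NCD turned to -0.17 and that of Zfp36l2 was 0.29.

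**Figure D1:**
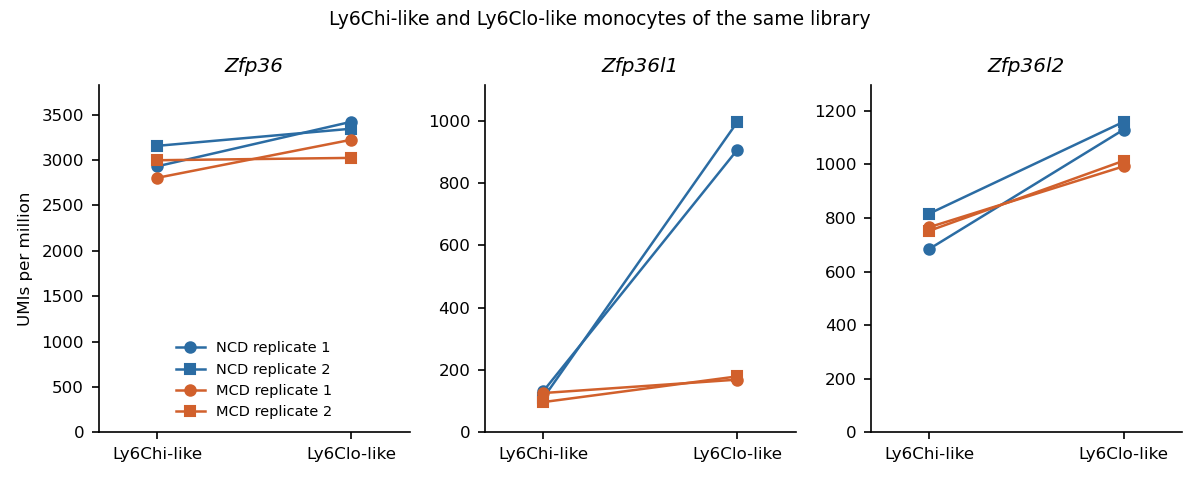
CPM of each member (linear axes from 0) in Ly6Chi-like and Ly6Clo-like monocytes, 1 line per library. Zfp36l1 climbs from 132 and 110 to 907 and 996.5 CPM in the NCD libraries and only to 169 and 180 CPM in the MCD libraries, while the lines of Zfp36 are nearly level.

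Shares of cells showed the same order for Zfp36l1 when depth was made equal. After each cell was thinned to 1000 UMIs, which left out at most 3 cells of a class and library, a Zfp36l1 UMI was seen in 49.5% (95% exact Clopper-Pearson interval 42.0 to 56.9) and 51.5% (44.3 to 58.6) of NCD Ly6Clo-like cells. On MCD the share was 15.5% (12.0 to 19.6) and 14.9% (11.3 to 19.1). Ly6Chi-like cells had one in 11.4% and 6.96% on NCD and in 9.84% and 7.17% on MCD. Eosinophil-like cells, the class with the lowest level, had one in 5.69% and 8.01% of MCD cells at the same 1000 UMIs (154 and 127 shallower cells left out). Whether that share is a background was not tested. By CPM, the Ly6Chi-like libraries lay above the eosinophil-like libraries without overlap on both diets. Without thinning, 69.9% and 69.5% of NCD and 61.3% and 60.2% of MCD Ly6Clo-like cells had a UMI, at median depths of 1927 and 1991 against 12057 and 11901 UMIs. The intervals cover counting error only. Zfp36 was seen in 85.0% to 90.6% of the thinned monocytes of either class in all libraries.

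The diet effect was tested in each class on UMIs summed per library. Fold changes are MCD over NCD, as log2 with the standard error (SE) of the edgeR quasi-likelihood fit, and adjusted p-values are Benjamini-Hochberg values over all genes tested, with a threshold of 0.05. The members' levels per cell type and diet entered the choice of the family. Their adjusted p-values in both monocyte classes, in C1q macrophages and in the union are therefore descriptive and no independent support. In Ly6Clo-like monocytes Zfp36l1 fell by 2.71 ± 0.12 on the log2 scale (adjusted p = 8.33e-07). Its CPM was 5.45-fold higher on NCD than on MCD. Zfp36 changed by -0.38 ± 0.09 (adjusted p = 0.0119) and Zfp36l2 by -0.46 ± 0.10 (adjusted p = 0.00846). In that class 23.9% of 9051 genes passed, 12.8% as higher and 11.1% as lower, and with library totals 22.9% and 6.56%. Without MCD replicate 1 or without MCD replicate 2 the fit called 0 genes (1967 and 2073 at an unadjusted p under 0.05), and Zfp36l1 was at -2.65 (adjusted p = 0.104) and -2.78 (adjusted p = 0.0997). The calls of Zfp36 and Zfp36l2 in this class also ended with library totals in place of TMM, at -0.12 and -0.19, without the filter on low counts, and with a GC trend removed.

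In Ly6Chi-like monocytes all 3 members passed as lower, in a class where 28.8% of 9657 genes passed, 14.4% as higher and 14.4% as lower. With library totals in place of TMM 37.2% were higher and 6.47% lower. The log2 fold changes were -0.59 ± 0.10 for Zfp36 (adjusted p = 0.00149), -0.64 ± 0.17 for Zfp36l1 (adjusted p = 0.0174) and -0.51 ± 0.11 for Zfp36l2 (adjusted p = 0.00737). Their CPM overlapped between the diets. These calls rested on the scaling: TMM put the median of all genes at 0.05 and library totals put it at 0.57, and with library totals the values were -0.07, -0.11 and 0.02, of which none passed. With a GC trend removed the calls of Zfp36l1 and Zfp36l2 ended as well, at -0.35 and -0.33. Without NCD replicate 1, whose Ly6Chi-like class held the neutrophil transcripts, the call of Zfp36l1 ended at -0.43, and Zfp36 and Zfp36l2 passed at -0.57 and -0.55. The part of those transcripts in the result was not tested.

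C1q macrophages had the Zfp36l1 pattern of the Ly6Clo-like cells. Most of them came from cluster 18 on NCD and from cluster 7 on MCD, which carried different macrophage markers. The part of this difference in the diet effects below was not tested. Zfp36l1 was at 858 and 776 CPM on NCD and at 246 and 230 CPM on MCD, a fall by 1.90 ± 0.15 on the log2 scale (adjusted p = 4.82e-06), where 14.4% of 8995 genes passed, 8.49% as higher and 5.95% as lower (11.8% and 5.31% with library totals). Zfp36l2 went from 886 and 895 CPM to 688 and 649 CPM (-0.53 ± 0.14, adjusted p = 0.0194), a call that ended without NCD replicate 1, at clustering resolution 2.0 and with a GC trend removed. Zfp36 was at 2022 and 1971 CPM on NCD and at 2595 and 2309 CPM on MCD, which did not pass (0.17 ± 0.13, adjusted p = 0.413) and turned to -0.245 at clustering resolution 0.5 and to -0.0026 without MCD replicate 1. In the union, where 37.8% of 10984 genes passed, 20.1% as higher and 17.7% as lower (35.6% and 9.15% with library totals), Zfp36l1 fell by 1.93 ± 0.11 (adjusted p = 6.64e-06). Zfp36 (-0.46 ± 0.08, adjusted p = 0.00182) and Zfp36l2 (-0.53 ± 0.09, adjusted p = 0.00151) passed there with TMM and not with library totals, at -0.10 and -0.17. The diet effect of Zfp36 in the union was known when the family was proposed, so its p-value is no independent support. Without NCD replicate 1 the union values were -0.44, -1.84 and -0.54 for Zfp36, Zfp36l1 and Zfp36l2, and all 3 passed.

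**Figure D2:**
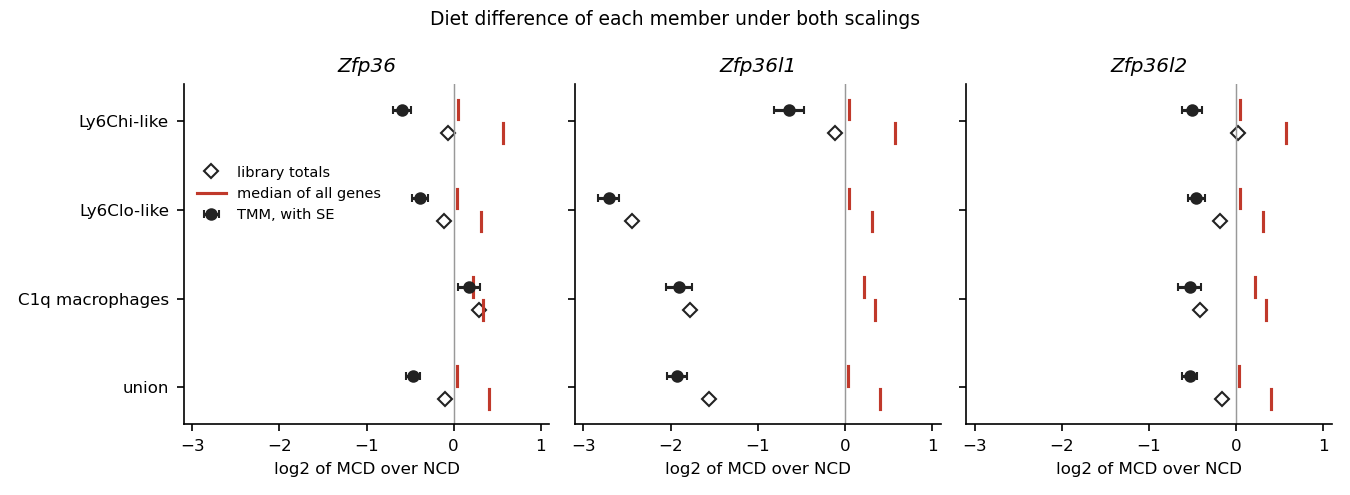
Log2 of MCD over NCD for each member in 3 classes and their union. Filled circles are TMM-scaled estimates with their SE, open diamonds are estimates with library totals, and red ticks mark the median of all genes under the same scaling. Zfp36l1 lies at -2.71 in Ly6Clo-like monocytes and stays far left of the median under both scalings there, in C1q macrophages and in the union, while Zfp36 and Zfp36l2 move toward 0 with library totals in both monocyte classes and the union.

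The gap between the diet effects of the 2 monocyte classes is the Ly6Clo-like to Ly6Chi-like contrast set against itself on the other diet. It therefore uses the values with which the family was chosen, and for the members it is given as a description with no test. In a fit with library as a block the class by diet term (log2, Ly6Clo-like minus Ly6Chi-like) was -2.12 ± 0.16 for Zfp36l1, 0.16 ± 0.07 for Zfp36 and -0.00083 ± 0.09 for Zfp36l2. Over the alternatives that were run the term of Zfp36l1 lay between -2.35 and -1.83, while that of Zfp36 turned to -0.047 with library totals. Of 9649 genes 5.28% passed in this fit, 3.7% with a positive and 1.58% with a negative term, and with library totals 1.83% and 3.53%. Nothing is read from these shares for the members.

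**Figure D3:**
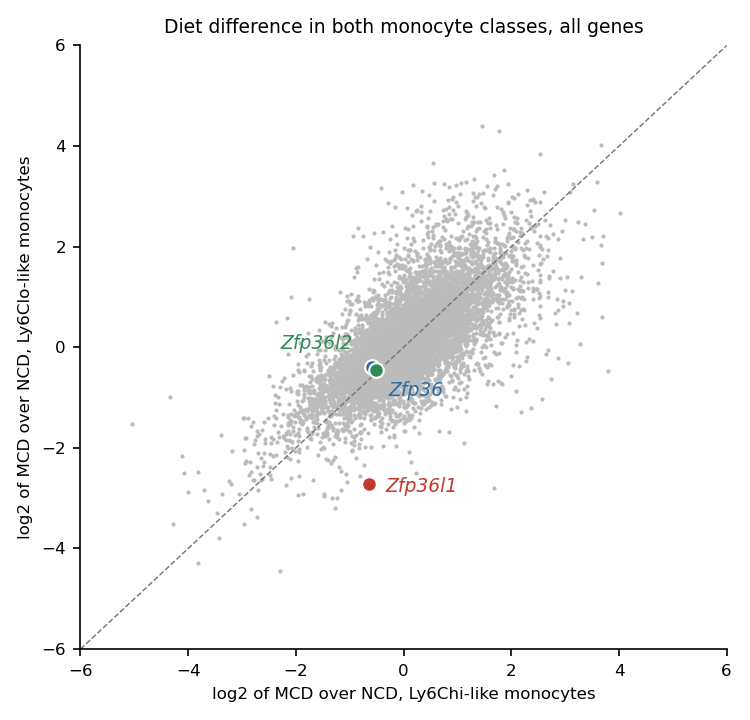
Log2 of MCD over NCD in Ly6Chi-like (horizontal) against Ly6Clo-like monocytes (vertical) for 8849 genes fitted in both, as grey points, with the members in colour and the line of equal change dashed. A further 63 genes lie outside the axes. Zfp36 and Zfp36l2 sit near the line, and Zfp36l1 lies at -0.64 and -2.71, well below it.

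Several other measures moved with Zfp36l1. The Ly6Clo-like class itself changed with diet: its summed Ly6Clo list stood at 8112 and 9647 CPM on NCD and at 5650 and 6652 CPM on MCD, with all 16 markers detected in every library. Its summed Ly6Chi list stood at 5732 and 6086 CPM on NCD and at 9917 and 9126 CPM on MCD, with all 14 detected. Its summed C1q macrophage list stood at 1528 and 1565 CPM on NCD and at 5283 and 6084 CPM on MCD, and its Kupffer cell list at 311 and 246 against 1212 and 920 CPM with Timd4 at 0 in every library. The C1q list was also higher on MCD in Ly6Chi-like cells, at 1168 and 1193 against 4395 and 5053 CPM. Ly6c2 was higher on MCD in the Ly6Clo-like class (0.68 ± 0.16), and its class by diet term was 0.91. The term of Ccr2, the chemokine receptor of classical monocytes, was 0.65. Ace, with a diet effect of -0.76 in Ly6Clo-like and of -2.42 in Ly6Chi-like cells, had a term of 1.61, in the direction opposite to Zfp36l1. These genes are among the markers that named the classes, so their diet effects and terms are given without a test. Nr4a1, the nuclear receptor on which Ly6C-low monocytes depend, was higher on MCD in both classes (0.56 and 0.38) with a term of -0.23. The part of this change in class make-up in the Zfp36l1 result was not tested.

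Nuclear and opposite-strand transcripts moved too. Malat1, a long noncoding RNA kept in the nucleus, was at 34126 and 35017 CPM in NCD and at 12190 and 13697 CPM in MCD Ly6Clo-like cells. It fell in the Ly6Chi-like class (-1.77) as in the Ly6Clo-like class (-1.68), and its class by diet term was 0.03. Gm26669 was at 69.4 and 48.5 CPM (37 and 25 UMIs) in NCD and at 1.93 and 4.53 CPM (9 and 21 UMIs) in MCD Ly6Clo-like cells, with a term of -2.16. With its UMIs added to those of Zfp36l1, the diet effect on Zfp36l1 in Ly6Clo-like cells was -2.77 and the term was -2.07. Of other lineages, the 15 endothelial markers that are not also Ly6Clo markers summed to 454 and 450 CPM in NCD and to 334.5 and 350.6 CPM in MCD Ly6Clo-like cells, against 9024 to 14950 CPM in the endothelial-like class. Leaving out cells with more than 0.5% UMIs of lymphoid, endothelial, erythroid, platelet or hepatocyte lists gave -2.71 for Zfp36l1 in Ly6Clo-like cells and -2.16 for the term. The part of nuclear RNA, opposite-strand reads or other lineages in the Zfp36l1 result was not tested.

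The lower Zfp36l1 level on MCD was not limited to the monocyte and macrophage classes. Among 10 classes with at least 20 cells in every library, both MCD libraries lay below both NCD libraries in 8 for Zfp36l1, in 7 for Zfp36l2 and in 4 for Zfp36. These counts were not tested and are read against the share of genes with a mean of at least 20 CPM that lay below in the same way. That share was 14.6% in Ly6Chi-like monocytes, 21.8% in Ly6Clo-like monocytes, 22.8% in C1q macrophages, 28.5% in endothelial-like and 22.0% in eosinophil-like cells. It was 17.3% in migratory DC-like, 16.3% in interferon or Cxcl9 activated-like, 13.1% in cDC2-like and 11.1% in NK cell or ILC-like cells and 11.2% in unnamed cluster 13. Migratory DC-like cells had the highest Zfp36l1 level in both diets, 2180 and 2525 CPM on NCD and 1116 and 956 CPM on MCD. Endothelial-like cells had 838 and 757 against 327 and 329 CPM, and cDC2-like cells had 459 and 523 against 338 and 305 CPM. The interferon or Cxcl9 activated-like class went from 439 and 376 to 136 and 126 CPM, and NK cell or ILC-like cells from 332 and 508 to 175 and 185 CPM, both with values that did not overlap. The Ly6Chi-like class and the eosinophil-like class (91.6 and 31.4 against 70.8 and 92.2 CPM) were the 2 in which the diets overlapped.

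The order of the Zfp36l1 levels on NCD ran from migratory DC-like cells (mean 2352 CPM) to Ly6Clo-like monocytes (952), C1q macrophages (817) and endothelial-like cells (797), the last 2 with overlapping libraries. cDC2-like (491), NK cell or ILC-like (420) and interferon or Cxcl9 activated-like cells (407) overlapped along the order, and Ly6Chi-like monocytes (121) and eosinophil-like cells (61.5) came last of 11 classes. On MCD the Ly6Clo-like monocytes (175) stood in place 10 of 14 classes, in a run with NK cell or ILC-like cells (180) whose libraries overlapped theirs. B cell-like (525) and T cell-like cells (443), present in number on MCD only, stood in places 2 and 3.

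Zfp36 was highest in granulocyte-like cells. In eosinophil-like cells it was at 9816 and 10975 CPM on NCD and at 5379 and 3651 CPM on MCD, at median depths of 751 and 757 against 1313 and 1227 UMIs. Basophil or mast cell-like cells, present in number on NCD only, had 7560 and 7916 CPM. The last place was held by a lymphoid class on each diet, with 1052 to 1205 CPM in NCD NK cell or ILC-like cells and 391 and 706 CPM in MCD T cell-like cells, while B cell-like cells (1432 on average) stood in place 10 of 14 on MCD. Between these ends the Ly6Clo-like class held place 3 on both diets, with means of 3382 and 3123 CPM. On MCD its libraries overlapped those of the interferon or Cxcl9 activated-like class above it (3140 CPM). Zfp36 was higher on MCD in both libraries in 3 classes, C1q macrophages, cDC2-like cells (2251 and 2222 against 2377 and 2477 CPM) and interferon or Cxcl9 activated-like cells. The share of genes higher in the same way was 46.0%, 70.2% and 56.2% in these classes. It was 67.3% in Ly6Chi-like and 51.0% in Ly6Clo-like monocytes, 39.7% in endothelial-like, 26.9% in eosinophil-like, 43.2% in migratory DC-like and 45.6% in NK cell or ILC-like cells and 57.3% in unnamed cluster 13, so being higher on MCD was common.

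The leading class for Zfp36l2 differed between the diets. Basophil or mast cell-like cells led on NCD with 2192 and 2050 CPM, ahead of eosinophil-like cells (1546 and 1415 CPM), and NK cell or ILC-like cells led on MCD with 1422 and 1196 CPM, where T cell-like cells (1121 on average) overlapped them. Migratory DC-like cells, first for Zfp36l1, were last for Zfp36l2 with 212 and 314 CPM on NCD and 156 and 123 CPM on MCD. Ly6Clo-like monocytes stood above Ly6Chi-like monocytes on both diets, with means of 1145 against 751 and of 1003 against 759 CPM. On MCD eosinophil-like cells had 809 and 913 CPM. The fourth mouse gene of the family, Zfp36l3, which is expressed in placenta, had 0 UMIs in every class.

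**Figure D4:**
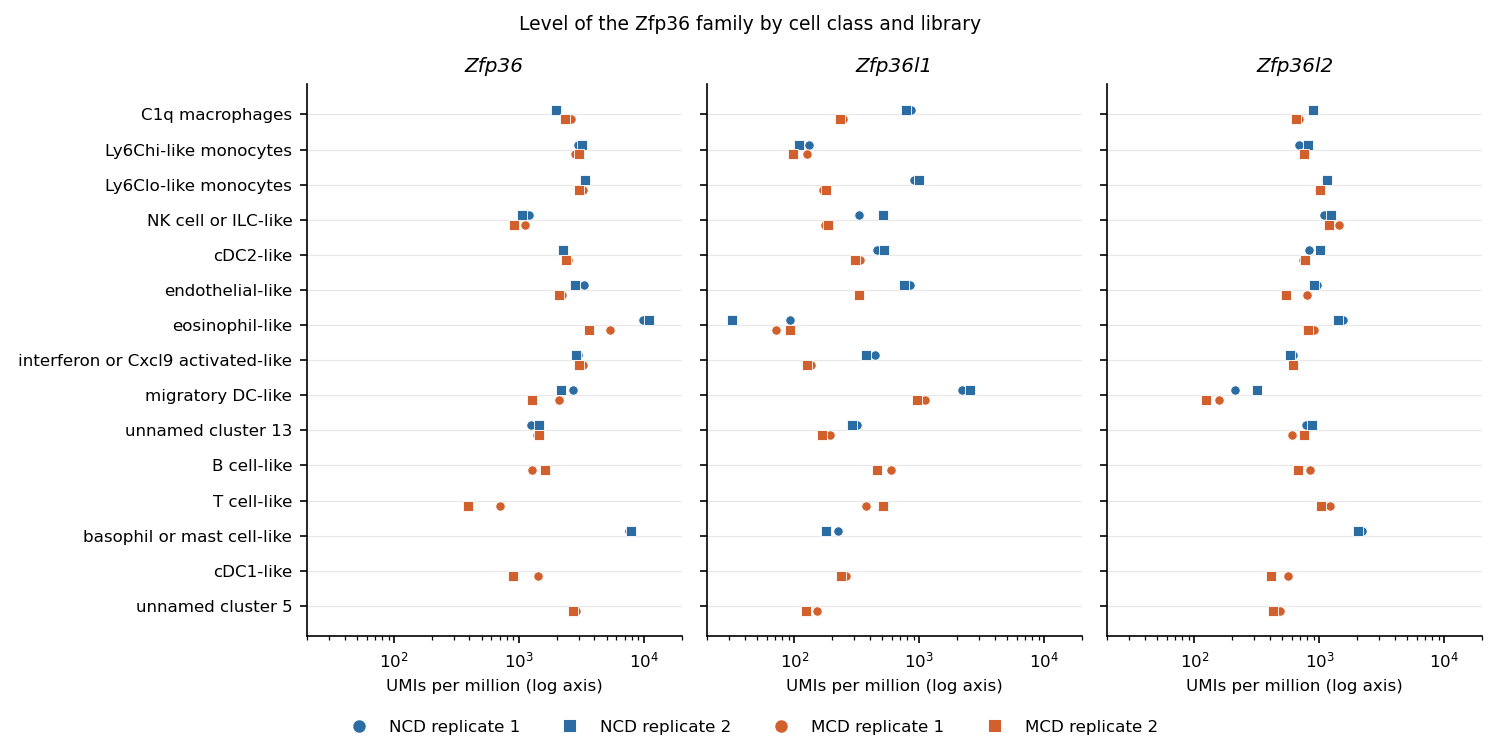
CPM (log axis) of the 3 members in each class, for libraries with at least 20 cells of the class. Colours mark the diet and symbols the replicate. MCD values of Zfp36l1 lie left of the NCD values in most classes, from migratory DC-like cells (2180 and 2525 against 1116 and 956 CPM) to Ly6Clo-like monocytes, and overlap them in Ly6Chi-like and eosinophil-like cells.

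Likeness to other genes was taken over 50 class-by-library profiles as the Pearson correlation of log2(CPM + 10) among 5525 genes. The profiles share libraries and depth, so these values only describe them. Zfp36 was most like Ccl6 (0.89), a chemokine gene, Dusp1 (0.88), the phosphatase that switches off p38, Snap23 (0.83), a membrane fusion gene, Ccl9 (0.83), another chemokine gene, and Ptgs2 (0.81), the prostaglandin synthase COX-2. The genes most like Zfp36l1 were Malat1 (0.77) and its opposite-strand neighbour Gm26669 (0.77), followed by Bmp2k (0.73), Hint3 (0.71) and Pigp (0.68). Zfp36l2 was most like Fli1 (0.80), a transcription factor of blood cells, Il16 (0.77), Arhgap15 (0.75), Ssh2 (0.75) and Gmfg (0.74). By rank (Spearman) correlation all genes listed for Zfp36l2 left its first 5, with Gmfg at 0.39. Snap23, Ptgs2 (0.66) and Bmp2k left the first 5 of their members by rank too. With log2(CPM + 1) Ptgs2 and Pigp left them. The members were little like each other, with -0.36 between Zfp36 and Zfp36l1, 0.24 between Zfp36 and Zfp36l2 and -0.38 between Zfp36l1 and Zfp36l2.

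Among the regulators, the kinase that acts on Zfp36 rose. Of 18 tested kinases, phosphatases and 14-3-3 proteins known to act on the family, 6 were higher, 4 were lower and 8 did not pass in the union, where 20.1% of all genes were higher and 17.7% lower, and the list's median was 0.21 against 0.04 for all genes. Mapkapk2, which encodes MK2, went from 57.7 and 55.7 to 293 and 300.1 CPM (2.02 ± 0.12, adjusted p = 6.64e-06) and rose in both monocyte classes (1.76 and 2.05). Akt1, a kinase that phosphorylates Zfp36l1, went from 35.3 and 51.2 to 155 and 136 CPM (1.39 ± 0.15). Map2k3, which activates p38 (0.79), and the phosphatase subunit Ppp2cb (0.65) also rose, the latter not with thinned UMIs. Dusp1 went from 3594 and 3704 to 2963 and 2703 CPM (-0.73 ± 0.08, adjusted p = 1.65e-04). The 14-3-3 genes Ywhaz (-0.69), Ywhab (-0.60) and Ywhaq (-0.39) passed as lower, of which Ywhab and Ywhaq did not with library totals.

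The decay machinery that the family recruits moved in both directions. Of 20 tested deadenylase and poly(A) genes 2 were higher and 8 lower, beside 20.1% and 17.7% of all genes, with a median of -0.02 against 0.04. With library totals, where 35.6% of all genes were higher and 9.15% lower and their median was 0.40, 5 were higher and 2 lower. Btg2, an antiproliferative gene whose product binds deadenylases, went from 482 and 434 to 1029 and 1110 CPM (0.86 ± 0.11, adjusted p = 3.76e-04), and its relative Btg1 changed by -0.61. The subunit Cnot10 rose by 1.01, a call that ended without NCD replicate 2, in DESeq2, with a GC trend removed and with equal weight to each class. Cnot2 (-0.78), Cnot3 (-0.62) and the deadenylase Cnot6 (-0.58) passed as lower, the last 2 not with library totals. The scaffold Cnot1 (0.21) and the deadenylase Cnot7 (-0.11) did not pass. These last genes were picked after their values were seen.

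Of 28 decapping and exonuclease genes 4 were higher and 8 lower, with a median of 0.04, beside 20.1% and 17.7% of all genes and their median of 0.04. With library totals 9 were higher and 5 lower, beside 35.6% and 9.15% of all genes. The Sm-like ring genes Lsm5 and Lsm6 had the largest falls (-1.45 each), from 158 and 167 to 78.5 and 74.2 CPM for Lsm5, and Exosc2, an exosome subunit, changed by -1.08 and Lsm3 by -0.86. The exosome subunit Exosc5 (0.98), the decapping scaffold Edc4 (0.69), Lsm4 (0.52) and the cap-binding gene Eif4e2 (0.50) passed as higher, and Lsm4 turned to -0.44 with a GC trend removed. The call of Edc4 ended without any 1 of the 4 libraries, that of Eif4e2 without NCD replicate 1 or 2, that of Lsm4 without NCD replicate 2 and that of Exosc2 without NCD replicate 1 (-0.64).

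Other RNA-binding proteins of AU-rich or stem-loop elements also split, with 5 of 16 higher and 6 lower and a median of -0.28, beside 20.1% and 17.7% of all genes. With library totals 1 was lower, beside 9.15% of all genes. Arid5a, which stabilises Il6 mRNA, went from 16.0 and 21.1 to 87.3 and 97.7 CPM (1.95 ± 0.17, adjusted p = 5.51e-05), and Zc3h12a, the endonuclease Regnase-1, from 45.5 and 32.7 to 114 and 127 CPM (1.26 ± 0.17). Hnrnpa0 (0.59) and Hnrnpd, the AU-rich element protein AUF1 (0.44), passed as higher. The translational repressors Tia1 (-1.20) and Tial1 (-0.57), the stabilising protein gene Elavl1 (HuR, -0.74) and Rc3h2 (roquin-2, -0.48) passed as lower, of which Tial1, Elavl1 and Rc3h2 did not with library totals.

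Decay rates were not measured, so the levels of known target transcripts were described by count. In the union 20 of 40 tested targets were higher, 2 were lower and 18 did not pass, with a median of 0.73 against 0.04 for all genes, of which 20.1% were higher and 17.7% lower. Csf2, F3 and Il23a did not pass the filter on low counts. In Ly6Chi-like monocytes 15 of 38 were higher and 1 lower, with a median of 0.57, where 14.4% of all genes were higher, and in Ly6Clo-like monocytes 15 of 34 were higher and 2 lower, with a median of 0.73, while 12.8% of all genes there were higher. Without NCD replicate 1 or NCD replicate 2 fewer targets were called higher in the union, where fewer of all genes were called as well. Of the 13 tested targets with the nonamer 6 were higher and 1 lower, and of the 27 without it 14 were higher and 1 lower, with medians of 0.68 and 0.73.

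Cytokine and early response genes were among the targets that rose in the union. Il1a, for interleukin 1 alpha, went from 0.64 and 1.28 to 10.7 and 11.5 CPM (3.15 ± 0.49, adjusted p = 0.00115), and without the C1q macrophages it did not pass (1.79). Cxcl3, a neutrophil chemokine gene, was seen in 1 and 3 UMIs on NCD and in 374 and 151 UMIs on MCD (3.13 ± 1.001, adjusted p = 0.0356), a call that ended without either NCD replicate. Ier3, an early response survival gene, went from 66.7 and 49.3 to 428 and 529 CPM (2.68 ± 0.18, adjusted p = 1.29e-05) and rose in both monocyte classes. Il12b, for the shared subunit of interleukins 12 and 23, had 0 UMIs in both NCD libraries and 37 and 29 on MCD, at least 1.89-fold higher against a floor of 3 counts over the NCD libraries, with a call that ended without either NCD replicate and in DESeq2. Ccnd1 (cyclin D1) changed by -1.41 (adjusted p = 0.0214), which did not pass without NCD replicate 1, and Il27 by -0.85 (adjusted p = 0.037), which did not pass under most alternatives. Il1b, for interleukin 1 beta, rose by 2.52 ± 0.14 (adjusted p = 5.31e-06) and Cxcl2, another neutrophil chemokine gene, by 1.92 ± 0.12 (adjusted p = 9.53e-06). Il1b, Cxcl2 and Tnf were picked after their values were seen. Tnf, whose element is printed above, went from 39.8 and 37.1 to 96.2 and 176.5 CPM (1.47 ± 0.31, adjusted p = 0.00611). It did not pass in Ly6Chi-like monocytes (0.67, adjusted p = 0.277) or Ly6Clo-like monocytes (1.52, adjusted p = 0.0544) alone.

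Immediate early genes, the class of rapidly induced genes to which Zfp36 belongs and which also rise when tissue is dissociated, were higher in 17 of 26 cases and lower in 4 in the union, with a median of 0.66, beside 20.1% and 17.7% of all genes and their median of 0.04. Without NCD replicate 1 fewer of them were called in either direction, and fewer of all genes were called as well. Gadd45b (2.91), Socs3 (2.01), the heat shock gene Hspa1a (1.56) and Egr2 (1.45) rose most, and Egr2 did not pass without the C1q macrophages (0.26). Gadd45b was at 32.1 and 19.2 CPM on NCD and at 196 and 301 CPM on MCD. Klf4 (-0.78), Fos (-0.60), Rhob (-0.44) and Klf2 (-0.31) passed as lower, and Klf2 turned to 0.05 with library totals. The part of tissue dissociation in the levels of Zfp36 was not tested.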

How the data were processed

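Values are the deposited UMI counts of each gene in each barcode, the output of Cell Ranger (version 3.0.2 per the file headers). The submitters' processing notes name mm10. How strand was used in counting is not stated. The family, lists and tests were chosen with earlier results of these data known. Barcodes were kept from 200 detected genes upward and up to 10% mitochondrial UMIs, 10 hepatocyte-rich cells (over 1% hepatocyte-list UMIs) were set apart, and no doublet caller was run, so doublets remain. The 2000 most variable genes, 30 principal components and 15 neighbours gave 26 Leiden clusters (resolution 1.0, leidenalg 0.10.2, Python 3.11.15). Each cluster and diet took the name of the marker list, of 24, with most members among its 10 leading genes and at least 3 among 50. This rule and the hepatocyte limit were settled after clusters had been seen. UMIs were summed per class and library (at least 20 cells), and edgeR 4.0.16 (limma 3.58.1, R 4.3.3) quasi-likelihood tests used TMM factors and filterByExpr, and were tested on simulated data. CPM are UMIs over the class total. DESeq2 1.42.0 was an alternative. Deviations of replicate 1 from its diet mean, compared across genes between the diets, correlated at -0.01 to 0.03. With 2 libraries per diet this cannot settle whether numbers pair libraries, which is not stated. Genes named are the members, up to 4 per list and direction passing in the union by largest change, 5 per member by likeness, and check genes. Targets were matched to GENCODE M21 3′ UTRs on GRCm38, the build of mm10.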

Additional observations from a re-analysis of the deposited data

Results flagged for a closer look

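Diet effects of 9 named genes differed between Ly6Clo-like and Ly6Chi-like monocytes at adjusted p under 0.05 in the class by diet fit (edgeR, library as a block). They came from the members, 44 named list genes, Gm26669, Malat1 and the marker check genes. Of all 9649 genes 5.28% passed in this fit, and nothing is read from the count of named genes. For Zfp36l1 the term of -2.12 uses the contrast with which the family was chosen and is a description, as is the -2.16 of Gm26669 on its opposite strand. Ace (1.61), Ly6c2 (0.91) and Ccr2 (0.65) are markers that named the classes, so their terms are descriptions too. Socs3 had -0.82, with a diet effect of 2.26 in Ly6Chi-like and of 1.48 in Ly6Clo-like cells. Klf2 had -0.47, Fos 0.36 and Btg1 -0.26. The CPM of Zfp36 was 1.23-fold on MCD in C1q macrophages, with both MCD libraries above both NCD libraries, while both lay below in Ly6Clo-like monocytes (0.923-fold), and this difference was not tested. In the fits the C1q direction turned at clustering resolution 0.5 (-0.245) and without MCD replicate 1 (-0.0026).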

How the results depend on the processing

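Log2 diet effects are MCD over NCD. Zfp36l1 kept its direction and call under all alternatives run in C1q macrophages (-2.13 to -1.65) and the union (-2.16 to -1.56). Its class by diet term, given without a test, was -2.35 to -1.83. With library totals Zfp36, Zfp36l1 and Zfp36l2 were at -0.069, -0.11 and 0.016 in Ly6Chi-like cells, Zfp36 and Zfp36l2 at -0.12 and -0.19 in Ly6Clo-like cells and at -0.10 and -0.17 in the union, Klf2 at 0.0497 and the Zfp36 class by diet term at -0.047. With a GC trend removed the calls of the members named here ended, with values of -0.35 for Zfp36l1 and -0.33 for Zfp36l2 in Ly6Chi-like cells, -0.24 for Zfp36 and -0.25 for Zfp36l2 in Ly6Clo-like cells, -0.42 for Zfp36l2 in C1q macrophages and Lsm4 turned to -0.44. Without a filter on low counts Zfp36 and Zfp36l2 were at -0.28 and -0.36 in Ly6Clo-like cells. In C1q macrophages Zfp36 was at -0.245 at resolution 0.5 and Zfp36l2 at -0.25 at resolution 2.0. The class by diet term of Zfp36l2, near 0 throughout, was 0.012 without the filter, 0.0068 with up to 20% mitochondrial UMIs, 0.0012 with thinned UMIs, 0.089 at resolution 2.0 and 0.0035 without cells rich in other lineages. TMM-scaled log2 ratios of Ly6Clo-like over Ly6Chi-like were -0.17 for Zfp36, 2.66 for Zfp36l1 and 0.29 for Zfp36l2 on NCD and 0.30 for Zfp36l2 on MCD, which was 0.46 at resolution 2.0. The causes were not tested.

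Genes called in Ly6Chi-like cells numbered 2783, 4215 with library totals and 1496 with thinned UMIs. In Ly6Clo-like cells there were 2162, with 1344 by DESeq2, 957 thinned and 1388 with the GC trend removed. C1q macrophages had 1299, with 2110 at up to 20% mitochondrial UMIs, 549 thinned and 2642 at resolution 0.5. The union had 4154 and 2325 thinned, and the class by diet fit 509, 273 thinned and 166 at resolution 0.5. With library totals the lists held 5 higher and 2 lower deadenylase genes, 9 and 5 decay genes, and 2 kinase list genes, 1 RNA-binding protein gene, 1 target and 2 immediate early genes as lower. DESeq2 gave 1 higher deadenylase gene, 2 higher decay genes and 1 lower target. Thinned UMIs gave 5 lower deadenylase genes, 1 higher decay gene, 3 higher kinase list genes, and 3 higher and 2 lower RNA-binding protein genes. GC removal gave 3 lower deadenylase, 3 lower RNA-binding protein and 2 lower immediate early genes, and no filter gave 1 lower target and 2 lower immediate early genes. Higher decay genes numbered 7 at up to 20% mitochondrial UMIs and 7 at resolution 0.5, and lower ones 5 with equal class weights. Of all genes in the union 35.6% were higher and 9.15% lower with library totals. Such shares are not printed for the other alternatives, so nothing is read from their list counts.

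Leaving out 1 library at a time gave -0.84 to -0.43 for Zfp36l1 in Ly6Chi-like cells. In Ly6Clo-like cells it gave -0.41 to -0.32 for Zfp36, -2.78 to -2.65 for Zfp36l1 and -0.50 to -0.42 for Zfp36l2. In C1q macrophages it gave -0.0026 to 0.27 for Zfp36 and -0.67 to -0.47 for Zfp36l2. Class by diet terms were 0.078 to 0.27 for Zfp36 and -0.032 to 0.14 for Zfp36l2, the latter 0.14 without NCD replicate 1 and 0.037 without MCD replicate 1. Calls ranged from 1423 to 2510 in Ly6Chi-like cells, 0 to 1636 in Ly6Clo-like cells, 723 to 968 in C1q macrophages, 2607 to 3808 in the union and 147 to 381 in the class by diet fit. List counts ranged from 1 to 2 higher and 4 to 8 lower deadenylase genes, 2 to 3 higher and 5 to 9 lower decay genes, 2 to 6 lower RNA-binding protein genes, 12 to 25 higher and 0 to 4 lower targets, and 2 to 5 lower immediate early genes.

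With the replicate block Zfp36, Zfp36l1 and Zfp36l2 were at -0.60, -0.65 and -0.51 in Ly6Chi-like cells, at -0.38, -2.71 and -0.46 in Ly6Clo-like cells, at 0.18, -1.90 and -0.53 in C1q macrophages and at -0.46, -1.93 and -0.53 in the union. It moved no count of calls by over 1.5 times, and among the named genes it ended the call of Il27 (-0.85). Of 697 alternatives over 44 named genes 614 kept direction and call. The planned union without lipid-associated macrophages was run without C1q macrophages, since no such class formed. The shallow NCD cells (median of 2173 and 2253.5 UMIs) limit what can be seen of low genes there.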
